A study of Mus musculus with 4 samples.

Results

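The ionotropic glutamate receptor subunits are the channel proteins through which glutamate excites cells. The 10 genes described here were chosen by name from the deposited expression table: the AMPA receptor genes Gria1, Gria2, Gria3 and Gria4, the kainate receptor genes Grik2, Grik3 and Grik5, and the NMDA receptor genes Grin1, Grin2b and Grin3a. They are 10 of the 48178 genes in the table and of the 15204 genes tested. All 10 passed the filter on low values, which kept genes with a normalized read count of 10 or more in 2 or more of the 4 libraries.

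RNA was sequenced from C57BL/6 hippocampal cells of postnatal day 0, labelled neural progenitor cells and grown as neurospheres until culture day 7 in medium with EGF and FGF-2, each at 20 ng/ml. The 2 FGF13Aoe libraries have the genotype hGFAPCre+, ROSA26FGF13A LSL/+, in which a stop flanked by loxP sites precedes an FGF13A cassette on a single ROSA26 allele. The 2 control libraries are hGFAPCre+, ROSA26FGF13A +/+. Both groups are thus labelled as carrying Cre recombinase under the human GFAP promoter, used in radial glia and astrocytes, so the cassette is switched on only in cells where that promoter has been active. Cells of each mouse went into 2 wells, and the labels do not tie replicates to separate pups, so p-values measure the spread between these libraries, which may be technical.

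Ionotropic glutamate receptors are assemblies of several subunits around a shared pore. AMPA receptors carry the fast current at excitatory synapses, NMDA receptors need glutamate with glycine or D-serine as co-agonist and pass calcium once depolarization has removed their magnesium block, and kainate receptors act on both sides of the synapse. In the brain these genes are known above all from neurons, but progenitors, astrocytes and cells of the oligodendrocyte lineage also use some of them, AMPA and kainate subunits in particular.

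The AMPA genes arose as copies of each other, so their reads have to be told apart by sequence. Shown for that reason is the 60-base coding stretch in which Gria1, Gria3 and Gria4 together match Gria2 best. It is read 5′ to 3′ on the coding strand from GENCODE transcripts (GRCm38), with capitals marking each base that differs from Gria2. It lies at chr11:57242881-57242940 (plus strand) in Gria1, chr3:80707067-80707126 (minus) in Gria2, chrX:41610046-41610105 (plus) in Gria3 and chr9:4464293-4464352 (minus) in Gria4.
Gria1: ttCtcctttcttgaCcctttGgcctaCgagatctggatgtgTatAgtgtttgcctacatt
Gria2: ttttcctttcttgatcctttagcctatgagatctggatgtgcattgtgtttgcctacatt
Gria3: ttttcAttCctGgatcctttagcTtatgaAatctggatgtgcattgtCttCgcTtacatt
Gria4: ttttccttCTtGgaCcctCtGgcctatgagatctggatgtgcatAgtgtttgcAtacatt
In this stretch Gria1 differed from Gria2 at 6 bases and Gria3 and Gria4 at 8 each. Single pairs can be more alike elsewhere: Gria2 and Gria4 shared an identical run of 41 bases in their transcripts. Over whole coding sequences the 6 pairs of AMPA genes were 66.7% to 72.3% identical, and no 2 of the 10 genes shared an identical run longer than 43 bases in the transcripts compared. The read length is not given in the sources used here, so how far reads were split between these copies was not tested.

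Reads assigned to genes numbered 9724413 and 11389767 in FGF13Aoe and 11481591 and 14092685 in control. Fgf13 itself averaged 4929 ± 681 normalized counts in FGF13Aoe and 770.2 ± 2.1 in control (SD, n = 2 each). Prm1, a sperm chromatin protein gene whose 3′ end is used in some transgenes, was at 9.67 and 10.1 normalized counts in FGF13Aoe against 1040 and 722 in control, although both groups carry the same Cre label; whether the groups carried the same transgene was not tested. The Y-linked gene Ddx3y had 0 and 0 reads in FGF13Aoe and 5 and 180 in control, so the libraries differed in their content of male RNA.

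Of the 10 subunit genes, 5 fell in FGF13Aoe (Gria1, Gria3, Gria4, Grin1 and Grin2b), 1 rose (Grik3) and 4 did not pass (Gria2, Grik2, Grik5 and Grin3a). The test was limma on log2(normalized count + 1), two-sided, with Benjamini-Hochberg adjustment over all genes tested and a threshold of 0.05. By the same test 19.1% of all tested genes were lower in FGF13Aoe, 16.2% were higher and 35.3% changed in either direction. The 10 genes had a median log2 change of -0.79, beside -0.01 over all tested genes. Of all 10, 3 (Gria1, Grin1 and Grin2b) were called and at least 4-fold lower, beside 5.47% of all tested genes. In 7 of the 10 the libraries of the groups did not overlap, as in 73.7% of all tested genes, so the absence of overlap was no more common among the receptor genes than elsewhere. In bulk RNA, fewer cells of a type and less RNA per cell cannot be told apart, and this holds for each change given here.

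**Figure D1:**
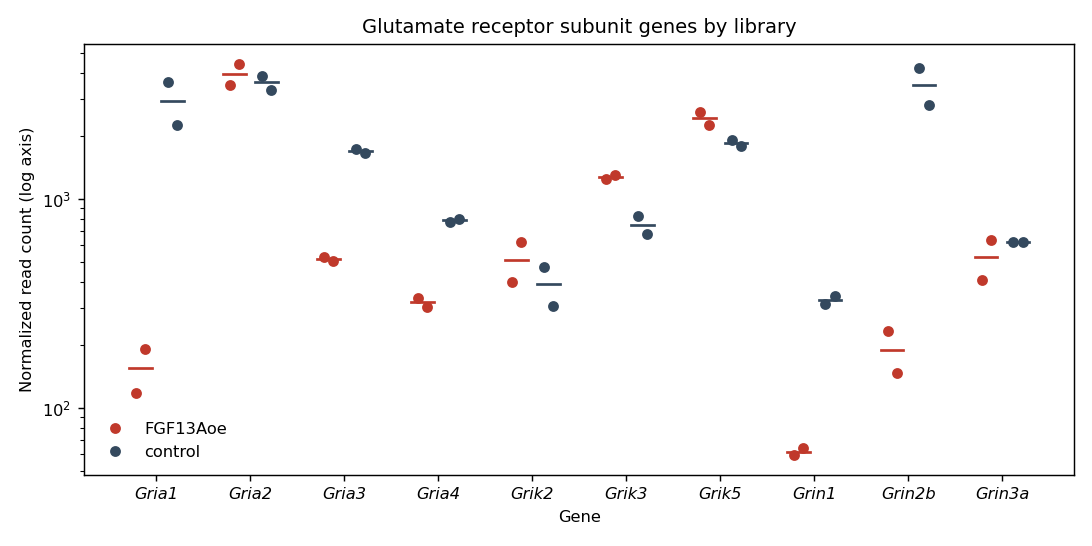
Normalized read counts (log axis) of the 10 receptor genes in each library, FGF13Aoe in red and control in dark blue; points are libraries (n = 2 per group) and short lines are group means. Gria1 and Grin2b lie more than 10-fold lower in both FGF13Aoe libraries, while the Gria2 points of the groups overlap.

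Among the AMPA genes, Gria1, Gria3 and Gria4 fell in FGF13Aoe, Gria1 by far the most, and Gria2 did not pass the test. Gria1 (ENSMUSG00000020524, GRCm38 chromosome 11, 57011387 to 57330244) encodes GluA1, a subunit whose insertion into synapses accompanies long-term potentiation. It had 117 and 191 normalized counts in the FGF13Aoe libraries against 3601 and 2245 in the control libraries. The groups were far apart, and its control libraries lay further apart than those of any other AMPA gene. The mean in FGF13Aoe was 0.0528 of that in control, and log2 values differed by -4.24 ± 0.31 (SE, n = 2 libraries in each group; limma adjusted p = 0.00133).

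Gria2 (ENSMUSG00000033981, chromosome 3, 80681450 to 80802835) encodes GluA2, the subunit that makes AMPA receptors nearly impermeable to calcium once its transcript has been edited. Its counts were 3486 and 4432 in FGF13Aoe against 3884 and 3328 in control, and the groups overlapped. The log2 change was 0.13 ± 0.17 (SE; limma adjusted p = 0.574), with a 95% interval of -0.28 to 0.54, which leaves room for changes of that size in either direction.

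Gria3 (ENSMUSG00000001986, chromosome X, 41400854 to 41678601), encoding GluA3, had 527 and 503 counts in FGF13Aoe against 1730 and 1647 in control. Its replicates lay close together and its groups far apart. The log2 change was -1.71 ± 0.11 (limma adjusted p = 0.00121). Gria3 is X-linked, and Xist, the transcript of the inactive X, averaged 30730.0 ± 808 counts in FGF13Aoe and 15432 ± 4562 in control; its part in the value of Gria3 was not tested. Gria4 (ENSMUSG00000025892, chromosome 9, 4417896 to 4796234), encoding GluA4, a subunit prominent in interneurons and early development, had 335 and 305 counts in FGF13Aoe against 773 and 804 in control. Its log2 change was -1.30 ± 0.13 (limma adjusted p = 0.00245), the smallest of the 3 AMPA falls.

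Relative to Gria2 within each library, a ratio that the scaling of libraries cannot alter, Gria1 stood at 0.0336 and 0.0432 in FGF13Aoe against 0.927 and 0.675 in control. Gria3 stood at 0.151 and 0.114 of Gria2 in FGF13Aoe against 0.445 and 0.495 in control, and Gria4 at 0.0960 and 0.0687 against 0.199 and 0.242. All 3 ratios were lower in both FGF13Aoe libraries than in either control library. With 2 libraries per group an exact two-sided permutation test of such a ratio cannot give a p below 0.33.

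**Figure D2:**
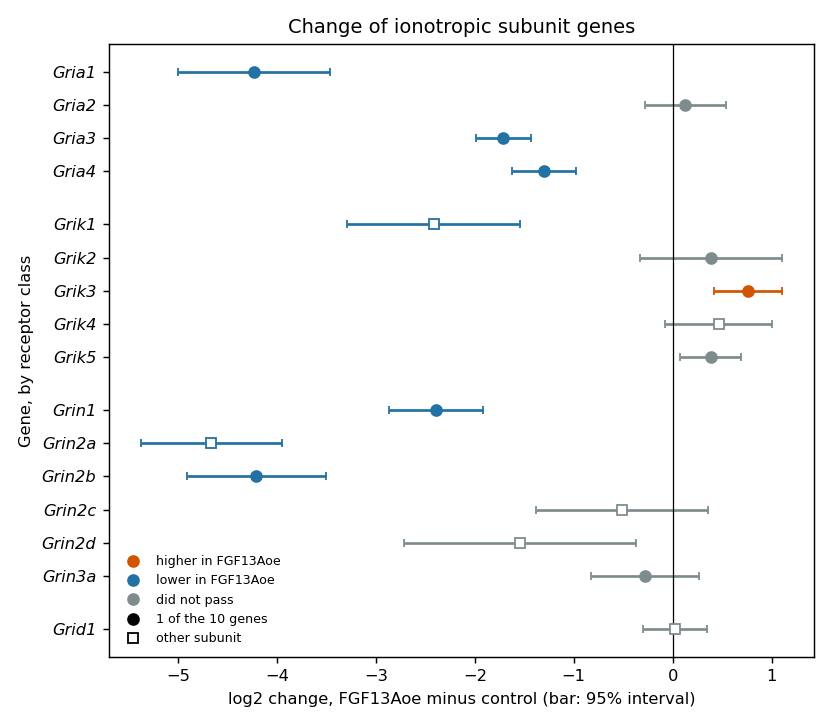
Log2 change (FGF13Aoe minus control, on log2(normalized count + 1)) of ionotropic subunit genes by receptor class, with 95% intervals; filled circles are the 10 genes and open squares the other subunits, and Grin3b was not tested. AMPA and NMDA genes spread from -4.67 (Grin2a) to 0.13 (Gria2), while 4 of the 5 kainate genes have values above 0 and Grik1 lies at -2.42.

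Among the NMDA genes, Grin1 and Grin2b fell in FGF13Aoe and Grin3a did not pass the test. Grin2b (ENSMUSG00000030209, chromosome 6, 135713233 to 136173511) encodes GluN2B, the glutamate-binding partner that predominates in the embryonic and newborn forebrain. It had 232 and 147 counts in FGF13Aoe against 4224 and 2793 in control, for a difference of -4.21 ± 0.28 in log2 (SE, n = 2 libraries in each group; limma adjusted p = 0.00121). The higher FGF13Aoe value was more than 10-fold below the lower control value.

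Grin1 (ENSMUSG00000026959, chromosome 2, 25291181 to 25319187) encodes GluN1, the glycine-binding subunit that every NMDA receptor needs. Its counts were 59.2 and 63.8 in FGF13Aoe against 314 and 341 in control, with little spread in either group. The log2 change was -2.39 ± 0.19 (limma adjusted p = 0.00157). Of its exonic bases 13.5% overlap the antisense gene Grin1os, and whether counting used the strand is not stated; Grin1os itself had 1 and 4 reads in FGF13Aoe and 10 and 16 in control. Counts of Grin2b per count of Grin1 were 3.92 and 2.30 in FGF13Aoe against 13.5 and 8.19 in control. Grin2b was thus lower relative to Grin1 in both FGF13Aoe libraries.

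Grin3a (ENSMUSG00000039579, chromosome 4, 49661611 to 49845744) encodes GluN3A, a glycine-binding juvenile subunit that lowers calcium entry and keeps synapses immature. It had 410 and 637 counts in FGF13Aoe against 620 and 619 in control, and the groups overlapped. The log2 change was -0.28 ± 0.22 (limma adjusted p = 0.36; 95% interval -0.83 to 0.27). Without FGF13Aoe replicate 2, the library with the higher value, it passed as lower (-0.60, limma adjusted p = 0.0184), so a fall of Grin3a rests on which FGF13Aoe library is read.

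The 4 other NMDA genes measured were sparser. Grin2a, encoding GluN2A, which takes over from GluN2B as synapses mature, had 7.25 and 7.09 counts in FGF13Aoe (6 and 7 reads) against 211 and 202 in control, a log2 change of -4.67 ± 0.29 (limma adjusted p = 0.00111). Grin2d, encoding GluN2D, an early subunit also found in interneurons, had a log2 change of -1.54 ± 0.48 (limma adjusted p = 0.0517), and Grin2c, encoding GluN2C, one of -0.51 ± 0.35 (limma adjusted p = 0.293). Grin3b, encoding GluN3B, had at most 8.92 counts in any library and was not tested.

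Of the 3 kainate genes chosen, 1 rose and 0 fell; a difference between receptor classes was not tested. Grik3 (ENSMUSG00000001985, chromosome 4, 125490700 to 125714173), encoding GluK3, a low-affinity subunit, rose. Its counts were 1238 and 1304 in FGF13Aoe against 825 and 678 in control, for a difference of 0.76 ± 0.14 in log2 (SE, n = 2 libraries in each group; limma adjusted p = 0.0115). The call ended without control replicate 1 (0.91, limma adjusted p = 0.0516) and without control replicate 2 (0.62, limma adjusted p = 0.102).

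Grik5 (ENSMUSG00000003378, chromosome 7, 25009849 to 25072346) encodes GluK5, a high-affinity subunit that needs GluK1, GluK2 or GluK3 as partner to form a channel. It had 2587 and 2264 counts in FGF13Aoe against 1905 and 1796 in control. The groups did not overlap, but the log2 change of 0.39 ± 0.12 did not pass (limma adjusted p = 0.0584; 95% interval 0.08 to 0.70). Grik5 did pass, as higher, with libraries centred on their medians (0.46, limma adjusted p = 0.0383) and without FGF13Aoe replicate 2 (0.48, limma adjusted p = 0.0212).

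Grik2 (ENSMUSG00000056073, chromosome 10, 49094833 to 49788766), encoding GluK2, had 400 and 619 counts in FGF13Aoe against 473 and 306 in control, and the groups overlapped (log2 change 0.39 ± 0.29, limma adjusted p = 0.332; 95% interval -0.33 to 1.11). Of the other kainate genes, Grik1, encoding GluK1, which is found in interneurons, had 30.2 and 46.6 counts in FGF13Aoe against 263 and 159 in control (-2.42 ± 0.36, limma adjusted p = 0.00622). It missed the threshold without control replicate 1 (-2.06, limma adjusted p = 0.0529). Grik4, encoding GluK4, had a log2 change of 0.46 ± 0.22 (limma adjusted p = 0.149). Grid1, encoding a relative of these receptors that binds synaptic organizers and is not gated by glutamate, had a change of 0.02 ± 0.13 (limma adjusted p = 0.897). In all, 2 of the 7 tested subunits outside the 10 fell and 0 rose, beside 19.1% lower and 16.2% higher over all tested genes.

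Levels of different genes were compared as normalized counts per kilobase of exon. In FGF13Aoe the highest of the 10 genes was Grik5 (500.5 and 438 per kilobase), followed by Gria2 (224 and 285) and Grik3 (138 and 145). Below them Gria3 (53.4 and 51.0), Gria4 (53.1 and 48.3), Grin3a (33.4 and 51.9) and Grik2 (30.2 and 46.8) came in that order by mean, with each gene overlapping the next. Gria1 (19.4 and 31.7) overlapped Grik2, and Grin2b (9.34 and 5.91) and Grin1 (6.10 and 6.57) were lowest and overlapped each other. In control Gria1 was highest (596 and 372 per kilobase), ahead of Grik5 (369 and 348), with no overlap but a Gria1 spread wider than the gap. Gria2 (249.8 and 214) followed, then Gria3 (175 and 167), and Grin2b (170 and 112) overlapped Gria3 and Gria4 (123 and 127). Grik3 (92.0 and 75.5), Grin3a (50.5 and 50.4), Grin1 (32.4 and 35.1) and Grik2 (35.7 and 23.1) were lower, the last pair overlapping. The order at the top depended on the length used: per kilobase of coding sequence, Gria2 (1316 and 1673) lay above Grik5 (881 and 771) in FGF13Aoe, and in control Gria2 (1466 and 1256) and Gria1 (1323 and 825) overlapped each other and lay above Grik5 (649 and 612).

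Read as the make-up of each receptor class, Gria2 was the largest AMPA share in FGF13Aoe and Gria1 the largest in control when counted per kilobase of exon. Gria2 made up 64.0% and 68.5% of the AMPA sum per exon kilobase in FGF13Aoe against 21.8% and 24.3% in control, and Gria1 made up 5.54% and 7.61% against 52.1% and 42.2%. Gria3 averaged 13.8% in FGF13Aoe and 17.2% in control, and Gria4 13.4% and 12.6%. The AMPA sum itself was 350 and 416 counts per kilobase in FGF13Aoe against 1144 and 880 in control. The lengths assume that all annotated exons are used, and with coding length alone the means for Gria2 were 80.1% in FGF13Aoe and 40.6% in control, those for Gria1 3.0% and 31.5%; Gria2 then exceeded Gria1 in control too.

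Among NMDA transcripts Grin3a made up 52.1% and 67.2% of the class sum per exon kilobase in FGF13Aoe against 17.1% and 21.9% in control. Grin2b made up 14.6% and 7.65% in FGF13Aoe against 57.5% and 48.9% in control. Neither share overlapped between groups. The NMDA sum was 64.0 and 77.2 counts per kilobase in FGF13Aoe against 295.9 and 230.1 in control, while Grin3a itself had 33.4 and 51.9 in FGF13Aoe against 50.5 and 50.4 in control, so its larger share came with a smaller sum and not with a higher level. Grin1 averaged 9.03% in FGF13Aoe and 13.1% in control. Among kainate transcripts Grik5 averaged 66.7% in FGF13Aoe and 66.9% in control, Grik3 averaged 20.2% in FGF13Aoe and 15.6% in control, and Grik1 0.820% in FGF13Aoe and 5.78% in control. These shares are descriptions of transcripts and carry no test.

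**Figure D3:**
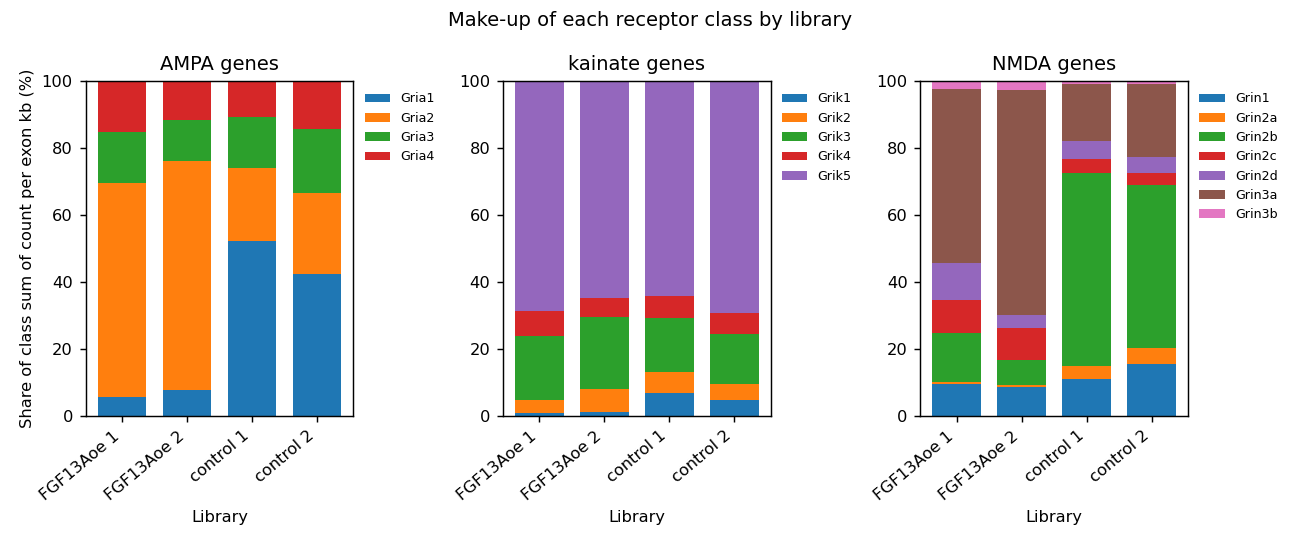
Share (%) of each gene in the sum of normalized counts per exon kilobase of the AMPA, kainate and NMDA genes, 1 bar per library, FGF13Aoe on the left. Gria2 takes 64.0% and 68.5% of the AMPA bar in FGF13Aoe against 21.8% and 24.3% in control, the largest NMDA segment is Grin3a in FGF13Aoe and Grin2b in control, and Grik5 is the largest kainate segment in each library.

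Promoters were set beside the values for Grin1, which fell, and Grik3, which rose. RefSeq windows of 300 bases (GRCm38.p6), from 250 bases before to 50 after a transcript start, were matched for 6 of the 10 genes: Gria2, Gria4, Grik2, Grik3, Grik5 and Grin1. Capitals mark the E-box, CANNTG, which neurogenic basic helix-loop-helix factors and others bind, and the GC box, GGGCGG, bound by Sp factors, on either strand. The windows are chr2:25319138-25319437 (minus strand) for Grin1 and chr4:125490446-125490745 (plus strand) for Grik3.
Grin1: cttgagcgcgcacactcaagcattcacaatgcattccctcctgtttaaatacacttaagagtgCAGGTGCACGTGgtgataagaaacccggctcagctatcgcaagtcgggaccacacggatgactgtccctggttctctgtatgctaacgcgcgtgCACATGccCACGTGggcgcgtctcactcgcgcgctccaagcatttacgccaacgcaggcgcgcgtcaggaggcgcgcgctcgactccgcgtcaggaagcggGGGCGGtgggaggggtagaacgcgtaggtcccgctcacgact
Grik3: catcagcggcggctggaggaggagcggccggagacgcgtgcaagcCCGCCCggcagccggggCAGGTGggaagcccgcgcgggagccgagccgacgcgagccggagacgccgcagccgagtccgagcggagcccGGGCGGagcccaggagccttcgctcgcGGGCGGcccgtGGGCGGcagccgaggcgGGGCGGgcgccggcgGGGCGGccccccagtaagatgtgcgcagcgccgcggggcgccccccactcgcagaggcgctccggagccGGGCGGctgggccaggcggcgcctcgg
Grin1 held 4 E-boxes and 1 GC box, and Grik3 held 1 E-box and 7 GC boxes; neither motif overlapped the other. Gria4, which also fell, held 1 E-box, the same number as Grik3, and Gria2 and Grik2 held 1 each. Grik5 held no E-box and 2 GC boxes, while Gria2, Gria4 and Grik2 held no GC box. Of all 32851 promoter windows, 72.3% held an E-box and 35.7% a GC box. A match describes these letters and not a bound site.

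Genes of proteins that bind AMPA and kainate receptors mostly fell. Of 22 tested genes on a list of auxiliary and partner proteins, 14 fell, 1 rose and 7 did not pass, with a median log2 change of -1.30. The shares to set beside this and each later list of genes or markers are 19.1% lower and 16.2% higher over all tested genes. Cacng2, encoding stargazin, which carries AMPA receptors to the synapse, had 14.5 and 9.11 counts in FGF13Aoe against 308 and 218 in control (-4.38 ± 0.35, limma adjusted p = 0.00149). Cnih2, a cornichon that slows AMPA receptor closing, had 135 and 119 counts in FGF13Aoe against 1278 and 1140.5 in control (-3.24 ± 0.15, limma adjusted p = 0.00111). Frrs1l, needed for AMPA receptor assembly, and Shisa6, a synaptic AMPA receptor partner, changed by -2.27 ± 0.15 and -1.46 ± 0.14 (limma adjusted p = 0.00121 and 0.00212).

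Cacng7, encoding another stargazin relative, was the gene of this list that rose. It had 2526 and 2217 counts in FGF13Aoe against 1191 and 1139 in control (1.02 ± 0.12, limma adjusted p = 0.0038). Counts of Cacng7 per count of Cacng2 were 174 and 243 in FGF13Aoe against 3.87 and 5.22 in control. The number of genes of the list that fell was 7 without control replicate 1 and 9 without control replicate 2.

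Genes of the intracellular partners of the receptors also fell more often than they rose. Of 15 scaffold and trafficking genes 7 fell, 1 rose and 7 did not pass (median -0.77). On the log2 scale the changes were -3.52 for Dlg2, encoding the scaffold PSD-93, -3.34 for Grip2, which anchors GluA2 and GluA3, -1.80 for the actin linker gene Epb41l1 and -1.46 for Nsf, whose product binds GluA2. Pick1, which also binds GluA2 and draws it into endosomes, rose by 0.89 ± 0.12 (limma adjusted p = 0.00518), though it missed the threshold without control replicate 1 or 2 (limma adjusted p = 0.0574 and 0.0541), and 18.6% of its exonic bases overlap another gene. Dlg4, encoding PSD-95, did not pass (-0.26 ± 0.22, limma adjusted p = 0.383) and was chosen after its value was seen. With either control library left out, 4 genes of the list fell and 0 rose.

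Of 13 genes of signalling downstream of glutamate receptors (kinases, Ras regulators, the calcineurin gene Ppp3ca and the nitric oxide synthase gene Nos1) 6 fell, 2 rose and 5 did not pass (median -0.31). Camk2a, the kinase gene of synaptic plasticity, had 73.7 and 115 counts in FGF13Aoe against 1179 and 1129 in control (-3.63 ± 0.24, limma adjusted p = 0.00121). Camk2b changed by -2.50, Nos1, which makes nitric oxide at NMDA receptors, by -3.52 and Rasgrf2 by -2.84. Camk2d and Fyn rose by 0.71 and 0.59; without control replicates 1 and 2 in turn their limma adjusted p was 0.147 and 0.0852 for Camk2d and 0.179 and 0.159 for Fyn, so neither passed.

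The metabotropic glutamate receptors, which signal through G proteins, fell in 6 of 7 tested genes, with 0 higher and a median of -1.80; Grm6 had 0 reads in every library. Grm2 changed by -2.94, with 7 and 6 reads in FGF13Aoe. Grm5, a receptor also used by progenitors and young astrocytes, had 1398 and 1850 counts in FGF13Aoe against 2973 and 2880 in control (-0.86 ± 0.16, limma adjusted p = 0.0122), and Grm3, known from astrocytes, changed by -0.69 ± 0.14 (limma adjusted p = 0.0155). Without control replicates 1 and 2 in turn 1 and 2 genes of this list fell; limma adjusted p was then 0.0919 and 0.0762 for Grm5, and 0.154 and 0.0740 for Grm3.

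Genes that supply glutamate went both ways: of 16 tested, 4 rose, 5 fell and 7 did not pass (median 0.10). The genes of the vesicular glutamate transporters, which load synaptic vesicles, all fell, with changes of -3.62 for Slc17a7, -2.96 for Slc17a6 and -3.54 for Slc17a8. Slc17a8 had 3.62 and 3.04 counts in FGF13Aoe against 52.5 and 46.4 in control. Got1, an aspartate aminotransferase that makes glutamate in the cytosol, had 301 and 284 counts in FGF13Aoe against 1269 and 1224 in control (-2.09 ± 0.12, limma adjusted p = 0.00111). Those that rose were Slc1a1, a glutamate uptake transporter (1.36 ± 0.18, limma adjusted p = 0.00508), Glud1, glutamate dehydrogenase (1.32 ± 0.16, limma adjusted p = 0.0039), Glul, the glutamine synthetase of astrocytes (0.77 ± 0.17, limma adjusted p = 0.0196), and the glutamine carrier Slc38a1 (0.62 ± 0.19, limma adjusted p = 0.0496). Of the exonic bases of Slc1a1 31.9% overlap a gene on the opposite strand. Glul missed the threshold without control replicate 1 or 2 (limma adjusted p = 0.166 and 0.146), Glud1 without control replicate 2 (limma adjusted p = 0.0517) and Slc38a1 without either control library or FGF13Aoe replicate 2 (limma adjusted p = 0.0826, 0.290 and 0.113).

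The adenosine deaminases that edit RNA were read because Adarb1 edits the Gria2 transcript at the site that sets calcium permeability. Adarb1 had 278 and 271 counts in FGF13Aoe against 409 and 419 in control (-0.59 ± 0.14, limma adjusted p = 0.0241), and missed the threshold without either control library (limma adjusted p = 0.168 and 0.182). Adar changed by -0.39 ± 0.12 (limma adjusted p = 0.0451) and missed it too without either control library (limma adjusted p = 0.249 and 0.257) or FGF13Aoe replicate 2 (limma adjusted p = 0.0551); 16.8% of its exonic bases overlap Chrnb2 on the opposite strand. Adarb2, for which no deaminase activity is known, had 13.3 and 20.2 counts in FGF13Aoe against 179 and 199 in control (-3.45 ± 0.31, limma adjusted p = 0.00194). Gene counts hold no editing state, so editing of Gria2 itself was not tested.

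**Figure D4:**
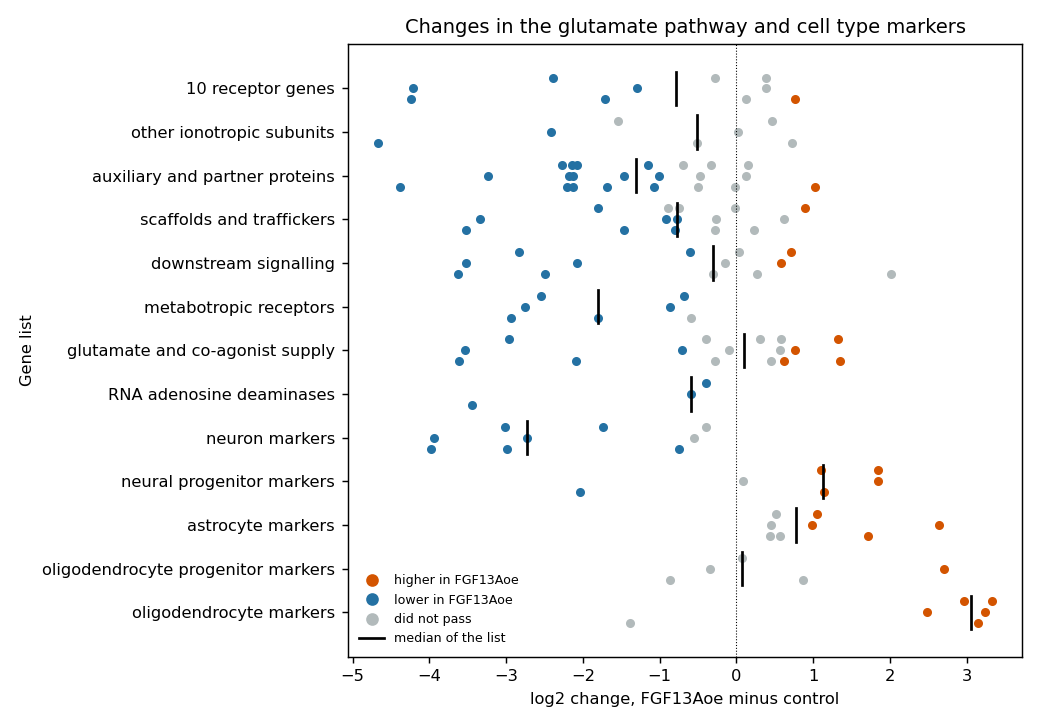
Log2 change (FGF13Aoe minus control) of each tested gene in the receptor, pathway and cell type marker lists; colours give the limma call and black bars the median of each list. Medians run from -2.73 for neuron markers to 3.05 for oligodendrocyte markers, with the 10 receptor genes at -0.79.

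Markers of several cell types moved with the receptor genes, and their part in these results was not tested. All 6 neural progenitor markers were measured in every library; Sox2, Pax6, Msi1 and Prom1 rose and Nes fell. Of 9 neuron markers 7 fell and 0 rose (median -2.73), and none was at 0. Their summed normalized counts ranged from 11133 to 14146 in FGF13Aoe and from 29251 to 38554 in control. Map2, which did not pass (-0.40 ± 0.21, limma adjusted p = 0.182), held 7195 and 10154 of these counts in FGF13Aoe against 11991 and 10636 in control. The higher control sum belonged to control replicate 1. Of the receptor genes that fell, Gria1, Grin2b and Gria3 had their higher control count in that library. Gria4 (773 and 804) and Grin1 (314 and 341) had theirs in control replicate 2. Of 6 oligodendrocyte markers 5 rose and 0 fell (summed counts 35325 to 36550 in FGF13Aoe against 3516 to 6137 in control). Mog, the oligodendrocyte marker that did not pass, had 13.3 and 28.3 counts in FGF13Aoe against 72.3 and 38.2 in control (-1.39 ± 0.51, limma adjusted p = 0.0812). Of 8 astrocyte markers 4 rose and 0 fell (181193 to 200117 in FGF13Aoe against 52333 to 73838 in control). Gfap held 111437 and 135769 of these counts in FGF13Aoe against 30384 and 12876 in control.

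Oligodendrocyte progenitor markers rose in 1 of 5 genes, Sox10 (2.70 ± 0.26, limma adjusted p = 0.00215). The other 4 did not pass, with log2 changes of 0.87 for Pdgfra, 0.07 for Cspg4, -0.87 for Olig1 and -0.35 for Olig2. Summed counts of the 5 were 16321 to 23153 in FGF13Aoe against 20461 to 23522 in control. Microglia markers summed to 43.5 to 51.6 counts in FGF13Aoe against 124 to 234 in control, with Tmem119 at 0 in both FGF13Aoe libraries; 2 of 4 tested fell. Endothelial markers summed to 53.6 to 202 in FGF13Aoe against 139 to 141 in control, with 0 of 2 tested called, and fibroblast and pericyte markers to 177 to 225 against 194 to 400, with 2 of 4 fallen.

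For each receptor gene, the tested gene with the closest pattern over the 4 libraries was found by Euclidean distance between log2 values centred on the gene's mean. Rbfox3, encoding the neuronal nuclear protein NeuN, was closest to Gria3 (distance 0.0387), with 130.5 and 123 counts in FGF13Aoe against 442 and 409 in control. Nell1 was closest to Gria1 (0.143) and Galnt9 to Grin2b (0.182), wider distances than for the other members; both neighbours had under 8 counts in each FGF13Aoe library. Ramp3 was closest to Grin1 (0.0316), Nudt4 to Gria4 (0.0324), Ptrh2 to Gria2 (0.0389), Dexi to Grik5 (0.0247), Trmt13 to Grik3 (0.0413), Zfp935 to Grik2 (0.112) and Eef1akmt1 to Grin3a (0.0322). With 4 libraries many of the 15204 genes lie near any pattern, so these names describe the nearest values only.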

How the data were processed

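For 48178 genes the deposited values are a normalized signal in each library (reads per gene over a size factor) and its mean. Beside them stand the authors' deposited log2 fold change and standard error, test score, p-value and adjusted p-value. STAR, DESeq2 and the build mm10 are listed in the submitters' processing notes; the sources used here state no version, annotation release or strand setting. Dividing a library's values by its smallest step gave whole numbers throughout (100%, tolerance 1e-06). Because the step of control replicate 1 (0.991) is close to 1, reads were used for count tests in 3 libraries only, and its read numbers are its values divided by that step. Counts of replicates differed beyond sampling noise, with a chi-square over its degrees of freedom of 29.3 in FGF13Aoe and 11.3 in control.

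Groups came from sample titles. Genes at 10 or more in at least 2 libraries (15204) were tested on log2(normalized count + 1), a scale that understates the change of low genes, using limma 3.58.1 (R 4.3.3), an intensity trend and no replicate block. Positions, exon lengths and overlaps came from GENCODE vM21 (GRCm38, the assembly that mm10 names), matched for 48143 genes. Coding sequences were aligned with MAFFT.

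The members and lists were chosen with earlier results of these data known. Named genes are all subunits, the 3 RNA deaminases, Fgf13, up to 4 called genes with the smallest p per list, those called against their list's majority, and the nearest gene per member. Prm1, Ddx3y, Xist, Grin1os, Mog, Map2, Gfap and the oligodendrocyte progenitor markers are given beside the results they bear on. So are Slc1a1, Glud1, Glul and Slc38a1 as a group. Some genes that this rule names are counted in their lists but not reported here. Alternatives were 2 pseudocounts, 2 filters, TMM scaling, median centring, no trend, the authors' p-values, count tests on the reads of 3 libraries (edgeR 4.0.16, DESeq2 1.42.0; the lone control is assumed to vary like the others), replicate blocks and each library left out. The tests were tried on simulated data with known changes. There limma recovered 46% of 2-fold and 93% of 4-fold changes, and 6.08% of its calls were false. In the same simulation edgeR and DESeq2, on 3 libraries, recovered fewer changes of each size and made a larger share of false calls. Per-library columns left out numbered 0.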

Additional observations from a re-analysis of the deposited data

How the results depend on the processing

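Gria1, Gria3, Gria4, Grin1 and Grin2b fell under each of the 12 alternatives with all libraries or with reads of 3 libraries, and without each of the 4 libraries in turn. Over those 16 settings the log2 change ran from -4.59 to -3.84 for Gria1 and from -4.54 to -3.87 for Grin2b. Gria2 and Grik2 passed in none of them. The number of receptor genes called higher was 2 with median centring and 0 to 2 with a library left out, beside 1; lower calls were 5 to 6 with a library left out, the sixth being Grin3a. Over all genes, edgeR called 537 higher and 1086 lower, DESeq2 722 and 968, and leaving out a library 551 to 2822 and 867 to 3447, beside 2467 and 2906.

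In the lists, edgeR and DESeq2 each called 9 auxiliary genes lower, 4 scaffold genes lower and 0 higher, 0 downstream signalling genes higher and 2 supply genes higher. They called 2 and 0 metabotropic receptors lower, and DESeq2 called 3 supply genes lower. The authors' p-values and the block with crossed numbers each called 2 scaffold genes higher, and without an intensity trend 1 downstream signalling gene was higher. With a library left out, counts ran from 0 to 1 higher and 1 to 3 lower for the other subunits, 7 to 15 lower for auxiliary genes, 0 to 2 higher and 4 to 8 lower for scaffolds, 0 to 3 higher for downstream signalling genes, 1 to 6 lower for metabotropic receptors and 1 to 5 higher for supply genes. With coding length, mean shares were 3.0% and 31.5% for Gria1, 80.1% and 40.6% for Gria2, and 18.4% and 66.8% for Grin2b in FGF13Aoe and control, and 15.9% for Grin3a in control. The cause of these differences was not tested. The settings that leave a library out or use reads also rest on fewer libraries.

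The replicate block called 2049 genes higher and 2647 lower, and the same 1 and 5 receptor genes in number. Same-numbered libraries deviated with a correlation of -0.103 over tested genes. This rests on 1 difference between libraries in each group, so it cannot show whether same-numbered libraries were prepared together. With the numbers crossed, 2816 genes were higher and 3257 lower. The crossed numbers and the coding length were chosen after seeing the data. With 2 libraries per group, precision is limited by their number. Of the called list genes, Grin2a, C1ql3, Grm2, Grm8, Slc17a8 and the fibroblast and pericyte marker Dcn had under 10 reads in each FGF13Aoe library.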
